A study of Homo sapiens with 6 samples.

Results

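Ribosome biogenesis genes were followed in suspension cultures of the acute myeloid leukaemia line HL-60 after knockdown of OSGEP. The set holds 38 genes for nucleolar processing factors, small nucleolar ribonucleoprotein (snoRNP) proteins and RNA polymerase I with its factors, taken by gene symbol from 58302 annotated genes, and all 38 were among the 14018 genes with enough reads to test. Ribosomes are made in the nucleolus, where RNA polymerase I transcribes the precursor of the ribosomal RNAs. Guide RNAs carried by box C/D and box H/ACA snoRNPs direct methylation and pseudouridylation of that precursor, and processing factors then cleave it and build the small (40S) and large (60S) subunits. Leukaemia cells that divide fast depend on this pathway, and the transcription factor MYC is known to drive many of its genes.

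The knockdown group, labelled as an OSGEP knockdown made by shRNA, has 3 libraries, and the control group, which carried a control shRNA and is labelled WT, has 3. OSGEP encodes the catalytic subunit of KEOPS, an enzyme that places t6A, a modified adenosine, in tRNAs whose codons begin with A, and the study asked what it does in acute myeloid leukaemia. Both groups grew in medium with 20% fetal bovine serum. The sources used here do not give the number of hairpins against OSGEP, whether lines were pools or clones, or whether each library had a culture of its own, so p-values measure the spread between these 6 libraries and that spread may be technical.

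Total counts ran from 8326982 to 10157091 per library. OSGEP mRNA stood at 21.2, 23.1 and 20.9 CPM (reads of a gene relative to the library total, scaled by the TMM method) in knockdown libraries 1, 2 and 3 and at 49.1, 54.4 and 76.9 CPM in control libraries 1, 2 and 3, so no knockdown library reached any control library. Of 10 myeloid markers of HL-60, all 10 were tested, and 5 fell (MPO, PRTN3, ELANE, AZU1 and MYB) and 0 rose in the knockdown. The summed level of the 10 was 1250 to 1300 CPM in knockdown libraries, beside 3060 to 3230 CPM in control libraries. CTSG, SPI1, CD33, CEBPA and CEBPE, at log2 fold changes of -0.72, -0.14, -0.03, 0.28 and 0.94, were not called. The 12 erythroid markers summed to 0.939 to 7.12 CPM in knockdown and 2.95 to 8.28 CPM in control libraries, and HBG1, SLC4A1, EPB42, AHSP and HEMGN were at 0 throughout. The 12 lymphoid markers summed to 42.9 to 59.1 CPM in knockdown libraries, beside 88.5 to 106 CPM in control libraries. Of 4 tested, 1 rose (PAX5) and 1 fell (NKG7). Most of the control sums came from NKG7, at 78.3, 87.5 and 92.4 CPM in control libraries, beside 24.4, 24.3 and 21.2 CPM in knockdown libraries. PAX5 went the other way, with a mean of 17.7 CPM in the knockdown, beside 1.45 CPM in the control. The 12 epithelial and mesenchymal markers summed to 38.5 to 64.4 CPM in knockdown libraries, beside 26.9 to 33.4 CPM in control libraries, and of 6 tested, 1 rose (CDH1) and 0 fell. The summed level of 4 nuclear RNAs, a sign of RNA selection, was 1870 to 1920 CPM in knockdown libraries, beside 2390 to 2800 CPM in control libraries. Of the 3 tested, MALAT1 fell (log2 fold change -0.64), while NEAT1 and KCNQ1OT1, at 0.21 and 0.86, were not called. The part of these differences in the values below was not tested. In bulk RNA, fewer cells of a type and less RNA per cell cannot be told apart.

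Of the 38 members, 1 rose and 0 fell in the knockdown (edgeR quasi-likelihood test, Benjamini-Hochberg adjusted p under 0.05 over all genes), which is 2.63% of the members. Of all genes tested, 10.8% were called, 5.19% higher and 5.56% lower. The only call was NOP10, a small protein of the box H/ACA snoRNP. DESeq2 called 2 members, NOP10 and RRS1, and limma-voom called 1. At an unadjusted p under 0.05 there were 7 members, where 22.9% of all genes pass. Among the 10007 genes tested with a mean level in the range of the members, 653 rose and 734 fell (13.9%). The median mean level of these genes was 33.1 CPM, beside 79.8 CPM for the members.

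The median log2 fold change of the members was -0.10, beside 0.01 over all genes tested, and 25 of 38 members had a value below 0, beside 49.7% of all genes. With scaling by library size alone, the medians were -0.03 for the members and 0.08 for all genes, and 20 members were below 0, so the difference between the medians was -0.11 under both scalings. Without knockdown 2 that difference was -0.06. The members' values ran from -0.63 for GAR1 to 0.96 for RRS1, with a median size of 0.15 regardless of sign, beside 0.36 over all genes. Knockdown and control libraries did not overlap for 6 members, 2 of them higher and 4 lower, where 28.9% of all genes do not overlap (13.3% higher and 15.6% lower).

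**Figure D1:**
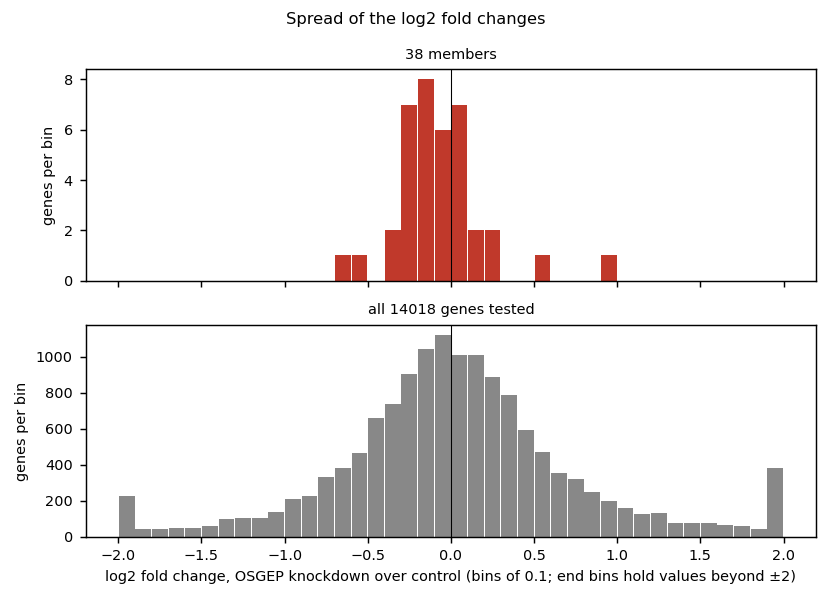
Number of genes (vertical axis) in bins of the log2 fold change of OSGEP knockdown over control (horizontal axis), for the 38 members (upper panel) and for all 14018 genes tested (lower panel, whose end bins hold all values beyond the axis). The members lie between -0.63 and 0.96, while the genes tested spread well past both ends.

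A missed threshold does not show that a level was equal, so the 95% intervals of the log2 fold changes were examined. For 25 of the 38 members the whole interval lay within a 1.5-fold change in either direction, and for 34 it lay within 2-fold. The shares over all genes tested were 16.9% and 45%, and these genes had a median mean level of 18.2 CPM, beside 79.8 CPM for the members. Among the 10007 genes in the range of the members, 2340 lay within 1.5-fold and 6269 within 2-fold. Their median mean level, 33.1 CPM, was still below that of the members, so they are not matched to the members in level. The 4 members whose interval reached past 2-fold were NHP2, GAR1, MYBBP1A and RRS1, all with a mean level below 35 CPM in both groups.

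**Figure D2:**
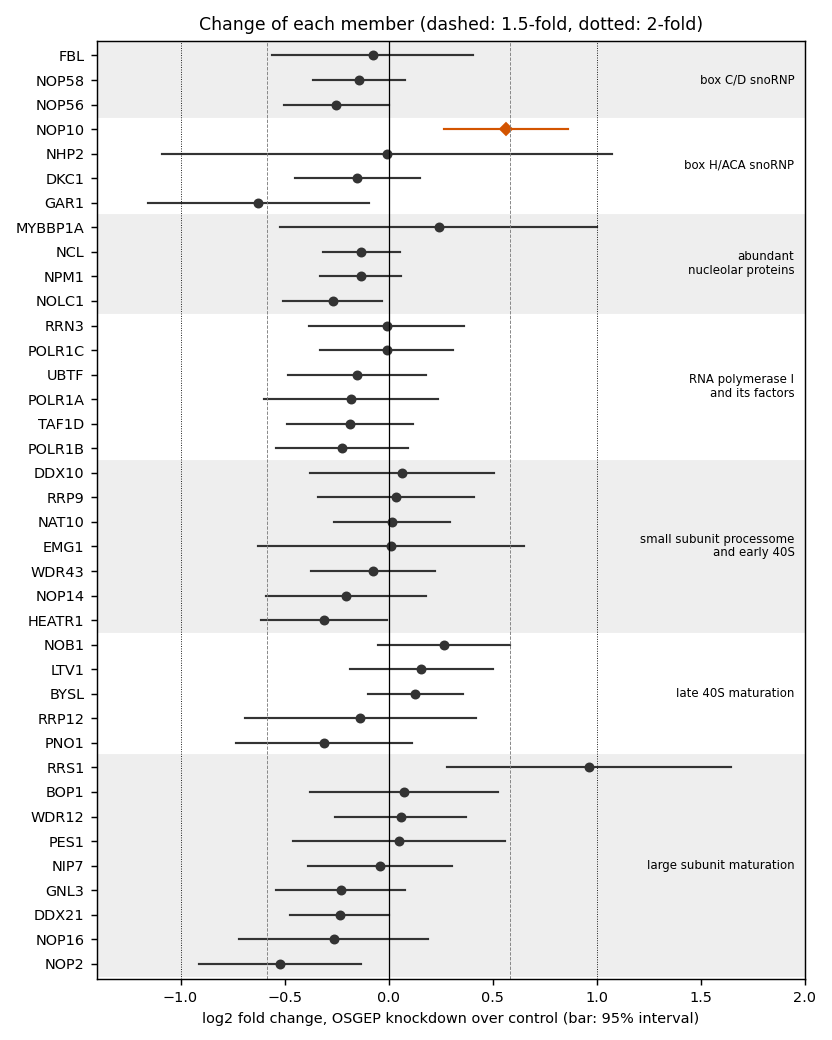
Log2 fold change of OSGEP knockdown over control (horizontal axis) for each of the 38 members, by role, with its 95% interval (bars), where the diamond marks the gene that was called. NOP10 is the only called member, at 0.56, and RRS1, at 0.96, has the highest estimate with a wide interval from 0.28 to 1.65.

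The 38 members together summed to 6997, 6296 and 6644 CPM in knockdown libraries 1, 2 and 3, with a mean of 6646 ± 350 (SD, n = 3). The sums were 6969, 7325 and 7214 CPM in control libraries 1, 2 and 3, with a mean of 7169 ± 182 (SD, n = 3). Knockdown library 1 lay above control library 1, so the groups overlapped. NPM1 alone makes up a large part of these sums, and without it the other 37 members summed to 4721 ± 167 CPM in the knockdown, beside 5056 ± 65.6 CPM in the control. Without NPM1 the groups did not overlap, at 4914, 4615 and 4634 CPM in knockdown libraries, beside 4988, 5118 and 5062 CPM in control libraries. By library size alone they overlapped, at 4842, 4915 and 4692 CPM in the knockdown, beside 4888, 4991 and 4888 CPM in the control. Among the role groups, the summed level of the RNA polymerase I genes was 511 ± 34.7 CPM in the knockdown, beside 559 ± 14.8 CPM in the control. By library size alone these sums were 520.8 ± 20.5 and 544.1 ± 14.2 CPM, and the groups overlapped. The large-subunit genes summed to 747 ± 64.6 CPM in the knockdown, beside 829.8 ± 8.31 CPM in the control. By library size alone they overlapped too, at 761.5 ± 56.1 and 807.9 ± 4.82 CPM. DDX21 alone averaged 335.6 CPM in the knockdown, beside 395.2 CPM in the control. Of the 9 large-subunit genes, 4 had a log2 fold change above 0, and the median was -0.04. Late small-subunit genes summed to 614 ± 53.4 CPM in the knockdown, beside 563 ± 12.8 CPM in the control. These groups overlapped, with knockdown library 2 at 560.9 CPM and control library 2 at 577.0 CPM. By library size alone they did not overlap, at 625.4 ± 30.6 CPM in the knockdown, beside 548.5 ± 12.3 CPM in the control. Of the 5 late small-subunit genes, 3 had a log2 fold change above 0 and 2 below. By library size alone the sums over all 38 were 6776 ± 104 CPM in the knockdown, beside 6980 ± 157 CPM in the control.

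**Figure D3:**
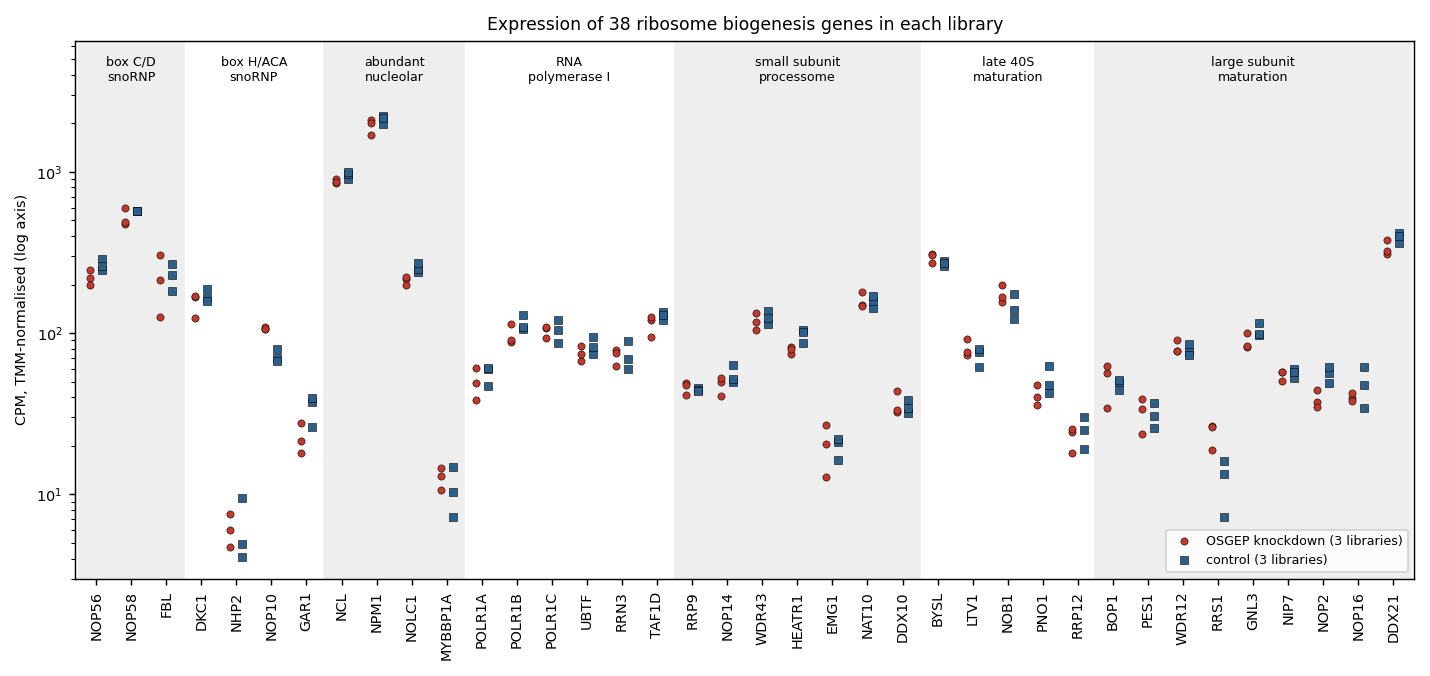
Expression of each member in each library, as TMM-normalised CPM on a log axis, with 3 knockdown libraries (circles, left) and 3 control libraries (squares, right) per gene and shading by role. In NOP10 and RRS1 all knockdown libraries lie above all control libraries, in NOP56, NOLC1, HEATR1 and NOP2 they all lie below, and in the other members the groups overlap.

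The RNA polymerase I group holds subunits of the enzyme and the factors that recruit it to ribosomal DNA. Of its 6 members 0 were called (edgeR; 0 at an unadjusted p under 0.05, and 0 by DESeq2 or limma-voom), and their log2 fold changes ran from -0.22 to -0.01, the median being -0.17. TAF1D, a subunit of the selectivity factor SL1, had the most reads of them. It stood at 120.2, 94.0 and 125 CPM in knockdown libraries 1, 2 and 3, beside 121, 135 and 130 CPM in control libraries 1, 2 and 3, a log2 fold change of -0.19 (95% interval -0.49 to 0.12). Knockdown library 2 was the lowest, and library 3 reached above control library 1.

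POLR1A, the largest subunit, had 38.4, 48.8 and 60.5 CPM in knockdown libraries, beside 59.6, 46.8 and 61.0 CPM in control libraries, a log2 fold change of -0.18 (-0.60 to 0.24). Knockdown library 1 lay below all controls, and the other libraries overlapped. POLR1B, the second largest subunit, averaged 97.9 ± 14.4 CPM in the knockdown, beside 114 ± 12.5 CPM in the control (SD, n = 3 each), a log2 fold change of -0.22 (-0.54 to 0.09). POLR1C, a subunit shared with RNA polymerase III, averaged 103 ± 8.52 CPM in the knockdown, beside 104 ± 16.7 CPM in the control. The upstream binding factor UBTF, an architectural protein of active ribosomal DNA, averaged 75.1 ± 8.11 CPM in the knockdown, beside 83.6 ± 10.5 CPM in the control. RRN3, which makes the polymerase competent for initiation, averaged 72.1 ± 8.27 CPM in the knockdown, beside 72.5 ± 15.1 CPM in the control, with an interval from -0.38 to 0.36.

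MYC, which is known to promote RNA polymerase I transcription, fell to 367, 292 and 340 CPM in knockdown libraries 1, 2 and 3, against 486, 564 and 558 CPM in control libraries 1, 2 and 3. With a log2 fold change of -0.69 (SE 0.11), the edgeR adjusted p was 0.000602, and the groups did not overlap.

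Box C/D snoRNPs carry the guide RNAs for ribose methylation. None of the 3 members was called by edgeR, DESeq2 or limma-voom, and 1 of them, NOP56, had an unadjusted p under 0.05. NOP58, a scaffold subunit, stood at 595, 477 and 487 CPM in knockdown libraries 1, 2 and 3, beside 574, 576 and 569 CPM in control libraries 1, 2 and 3, so the controls were nearly equal and the knockdown libraries lay on both sides of them (log2 fold change -0.14, 95% interval -0.36 to 0.08). NOP56, its partner scaffold, had 245, 221 and 199 CPM in knockdown libraries, beside 245, 288 and 259 CPM in control libraries, a log2 fold change of -0.25 with an edgeR adjusted p of 0.218. The highest knockdown library and the lowest control library were almost level.

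FBL, or fibrillarin, the methyltransferase of the complex, had the widest relative spread of the 38 members in the knockdown. Its level was 125, 305 and 213 CPM in knockdown libraries 1, 2 and 3, beside 268, 229 and 182 CPM in control libraries 1, 2 and 3. The coefficient of variation was 41.9% in the knockdown, beside 19.0% in the control, and the knockdown libraries held both the lowest and the highest of the 6 values. Its log2 fold change of -0.08 stood at 0.19 without knockdown 1 or at -0.42 without knockdown 2, and neither fit called it.

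Box H/ACA snoRNPs carry the guide RNAs for pseudouridylation, and the same proteins bind telomerase RNA. Of their 4 members, 1 rose and 0 fell. NOP10 stood at 107, 109 and 106 CPM in knockdown libraries 1, 2 and 3, beside 70.3, 67.4 and 80.0 CPM in control libraries 1, 2 and 3. The 3 knockdown libraries were close to each other and all above the control libraries, with group means of 107 ± 1.70 CPM in the knockdown, beside 72.6 ± 6.60 CPM in the control. The log2 fold change was 0.56 (SE 0.14; 95% interval 0.27 to 0.86, edgeR adjusted p = 0.0152), on 3095 reads in the knockdown, beside 1991 in the control. Leaving out 1 library ended the call without knockdown 3 (edgeR adjusted p = 0.0502), control 1 (0.0793) or control 2 (0.0991), at log2 fold changes of 0.59, 0.54 and 0.51. The NOP10 gene (ENSG00000182117) is on the minus strand of chromosome 15, from 34341713 to 34343177 in GRCh38.

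DKC1, or dyskerin, the pseudouridine synthase of the same complex, stood at 167, 124 and 169 CPM in knockdown libraries, beside 165, 187 and 158 CPM in control libraries, a log2 fold change of -0.15 (95% interval -0.45 to 0.15). GAR1, which binds dyskerin, had 27.6, 21.4 and 18.03 CPM in knockdown libraries 1, 2 and 3, beside 37.4, 39.8 and 26.3 CPM in control libraries 1, 2 and 3. Knockdown library 1 lay just above control library 3, and the log2 fold change of -0.63 (SE 0.25) was not called (edgeR adjusted p = 0.135). NHP2, a core protein of the complex, had 6.05, 7.58 and 4.74 CPM in knockdown libraries, beside 9.48, 4.09 and 4.92 CPM in control libraries, and its interval of -1.09 to 1.07 limits little. Whether NOP10 and its partners changed by different amounts was not tested.

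Abundant nucleolar proteins had the largest summed CPM of the role groups, 3024 in the knockdown, beside 3337 in the control, most of it from NPM1. Of the 4 members, 0 were called by edgeR, DESeq2 or limma-voom, with 1 at an unadjusted p under 0.05. NPM1, or nucleophosmin, a histone chaperone of the nucleolus that is often mutated in acute myeloid leukaemia, stood at 2083, 1681 and 2010.0 CPM in knockdown libraries 1, 2 and 3, beside 1982, 2207 and 2152 CPM in control libraries 1, 2 and 3. The groups overlapped, and the log2 fold change was -0.13 (95% interval -0.33 to 0.06). NCL, or nucleolin, an RNA-binding protein that acts on the ribosomal RNA precursor, had 854, 902 and 867 CPM in knockdown libraries, beside 898, 970.1 and 1004 CPM in control libraries, a log2 fold change of -0.13 (-0.32 to 0.06).

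NOLC1, or Nopp140, a chaperone of snoRNPs, had 215, 198 and 222 CPM in knockdown libraries 1, 2 and 3, beside 241, 251 and 273 CPM in control libraries 1, 2 and 3. Every knockdown library lay below every control library, but the log2 fold change of -0.27 (SE 0.11) was not called (edgeR adjusted p = 0.153). MYBBP1A, which restrains RNA polymerase I, was low, at 12.8 ± 1.91 CPM in the knockdown, beside 10.8 ± 3.76 CPM in the control (SD, n = 3 each).

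Early small-subunit assembly takes place in the processome around the U3 snoRNP. Of 7 members 0 were called by edgeR, DESeq2 or limma-voom, 1 had an unadjusted p under 0.05, and the median log2 fold change was 0.01. NAT10, an acetyltransferase of cytidines in the small-subunit rRNA, stood at 181, 149 and 148 CPM in knockdown libraries, beside 143, 159 and 171 CPM in control libraries, a log2 fold change of 0.02 (95% interval -0.26 to 0.29). HEATR1, which links the processome to RNA polymerase I transcription, had 74.6, 81.5 and 79.3 CPM in knockdown libraries, beside 104, 87.0 and 101 CPM in control libraries. Its groups did not overlap, and the log2 fold change of -0.31 had an interval from -0.62 to -0.01 and an edgeR adjusted p of 0.201. RRP9, a protein of the U3 snoRNP, averaged 45.9 ± 4.09 CPM in the knockdown, beside 44.8 ± 0.809 CPM in the control, and the processome protein WDR43 averaged 118 ± 14.6 CPM in the knockdown, beside 125 ± 11.7 CPM in the control.

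NOP14, another processome protein, averaged 47.6 ± 6.23 CPM in the knockdown, beside 54.9 ± 7.41 CPM in the control. The helicase gene DDX10 averaged 36.5 ± 6.21 CPM in the knockdown, beside 34.9 ± 3.22 CPM in the control. EMG1, a methyltransferase of a modified uridine in the small-subunit rRNA, spread over 27.0, 12.9 and 20.4 CPM in knockdown libraries, with 21.2, 22.1 and 16.4 CPM in control libraries between these ends.

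Late maturation of the small subunit had 5 members, with 0 called by edgeR, DESeq2 or limma-voom and 0 at an unadjusted p under 0.05. BYSL, or bystin, an assembly factor of pre-40S particles, stood at 311, 273 and 303 CPM in knockdown libraries 1, 2 and 3, beside 281, 259 and 271 CPM in control libraries 1, 2 and 3. Only knockdown library 2 lay within the control range, and the log2 fold change was 0.13 (95% interval -0.10 to 0.36). NOB1, the nuclease that makes the final cut of the small-subunit rRNA, averaged 174 ± 22.5 CPM in the knockdown, beside 145 ± 26.7 CPM in the control, a log2 fold change of 0.27 (-0.05 to 0.58). PNO1, the partner that holds NOB1 in check, averaged 41.1 ± 5.998 CPM in the knockdown, beside 50.9 ± 10.3 CPM in the control, a log2 fold change of -0.31 (-0.73 to 0.11). LTV1, an export factor, averaged 80.8 ± 10.2 CPM in the knockdown, beside 72.5 ± 9.73 CPM in the control, and RRP12, also linked to export, averaged 22.5 CPM in the knockdown, beside 24.8 CPM in the control, with an interval from -0.69 to 0.42.

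Large-subunit maturation had 9 members, of which edgeR and limma-voom called 0, DESeq2 called 1, and 2 had an unadjusted p under 0.05. RRS1, which helps to bring the small ribosomal RNA of the large subunit into the particle, stood at 26.7, 26.3 and 18.7 CPM in knockdown libraries 1, 2 and 3, beside 13.3, 16.2 and 7.26 CPM in control libraries 1, 2 and 3. Every knockdown library was above every control library. Its log2 fold change was 0.96 (SE 0.32), the highest of the 38, but it missed the threshold at an edgeR adjusted p of 0.0703. RRS1 passed with DESeq2 (adjusted p = 0.0446) and in edgeR without the filter on low counts (0.041). With any 1 library left out, edgeR did not call it. Without control 3 its log2 fold change was 0.70 (edgeR adjusted p = 0.258). NOP2, a cytosine methyltransferase of the large-subunit rRNA, stood at 37.5, 44.4 and 34.7 CPM in knockdown libraries, beside 49.1, 56.7 and 61.8 CPM in control libraries. The groups did not overlap, and the log2 fold change of -0.52 (SE 0.18) was not called (edgeR adjusted p = 0.0882).

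DDX21, a helicase that acts in transcription and processing of the precursor, had the most reads of the large-subunit members, with 377, 308 and 322 CPM in knockdown libraries, beside 420.4, 364 and 402 CPM in control libraries. Knockdown library 1 lay above control library 2, and the log2 fold change was -0.24 (95% interval -0.47 to 0.00). PES1, BOP1 and WDR12 form 1 complex of large-subunit processing, and their log2 fold changes were 0.05, 0.07 and 0.06. PES1 averaged 32.2 ± 7.71 CPM in the knockdown, beside 31.2 ± 5.54 CPM in the control, and WDR12 averaged 81.8 ± 7.35 CPM in the knockdown, beside 78.5 ± 6.56 CPM in the control. BOP1 had 56.3, 62.3 and 34.3 CPM in knockdown libraries, around control libraries at 44.1, 50.01 and 51.3 CPM. The GTPase gene GNL3, or nucleostemin, averaged 88.4 ± 10.3 CPM in the knockdown, beside 104 ± 9.86 CPM in the control, NIP7 averaged 55.0 ± 4.16 CPM in the knockdown, beside 56.6 ± 3.53 CPM in the control, and NOP16 averaged 39.99 ± 2.11 CPM in the knockdown, beside 48.0 ± 13.6 CPM in the control.

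Levels of different genes can be compared only per length of transcript. As CPM per kilobase of exon (RPKM, over the union of a gene's exons), the 38 members spanned 1.74 to 552 in the control. NPM1 was the highest, at 503 ± 55.9 RPKM in the knockdown, beside 552 ± 30.6 RPKM in the control. It was followed by NOP10, NOP58, BYSL and NCL in the knockdown, and by NOP58, NCL, NOP10 and BYSL in the control. The short NOP10 transcript thus stood at 194 ± 3.07 RPKM in the knockdown, beside 131 ± 11.9 RPKM in the control, while its partner NHP2 was at 4.06 ± 0.940 RPKM in the knockdown, beside 4.08 ± 1.92 RPKM in the control. The level of NHP2 is uncertain, since its pseudogene copies held more reads than the gene itself, as given below. NCL, NOP10 and BYSL, at 138 ± 7.83, 131 ± 11.9 and 120.0 ± 4.94 RPKM in the control, are neighbours in that order whose ranges of 1 SD to either side overlap. MYBBP1A was the lowest, at 2.06 ± 0.307 RPKM in the knockdown, beside 1.74 ± 0.606 RPKM in the control. With the longest transcript as the length, NOP58, NCL, FBL, BYSL and NOP10 followed NPM1 in the control, and NPM1 stood at 1090 RPKM in the knockdown, beside 1200 RPKM in the control.

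Annotated pseudogene copies took a share of the reads of some members. Of 10 members with copies named after them, 6 had copies that held at least 5% as many reads as the member itself. For NHP2 the copies held more reads than the gene, 430 against 180 in the knockdown libraries and 516 against 172 in the control libraries, nearly all of them in the processed pseudogene NHP2P1. For NOP56 they held 3733 against 6416 reads in the knockdown and 3583 against 7300 in the control, mostly in NOP56P3, and for DDX10 518 against 1040 in the knockdown and 596 against 965 in the control. The 49 copies of NPM1 held 18331 against 55102 reads of the gene in the knockdown, and 18001 against 58296 in the control. Since the treatment of reads with several alignments is not given in the sources used here, the split of these reads is uncertain. With the copies added to their member, a step chosen after seeing the data, the log2 fold changes were -0.23 for NHP2, -0.17 for NOP56, -0.11 for NPM1, -0.06 for DDX10, -0.02 for RRN3 and 0.10 for PES1, and edgeR still called only NOP10 among the 38. The sign of DDX10 differed from its value of 0.06 without the copies.

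**Figure D4:**
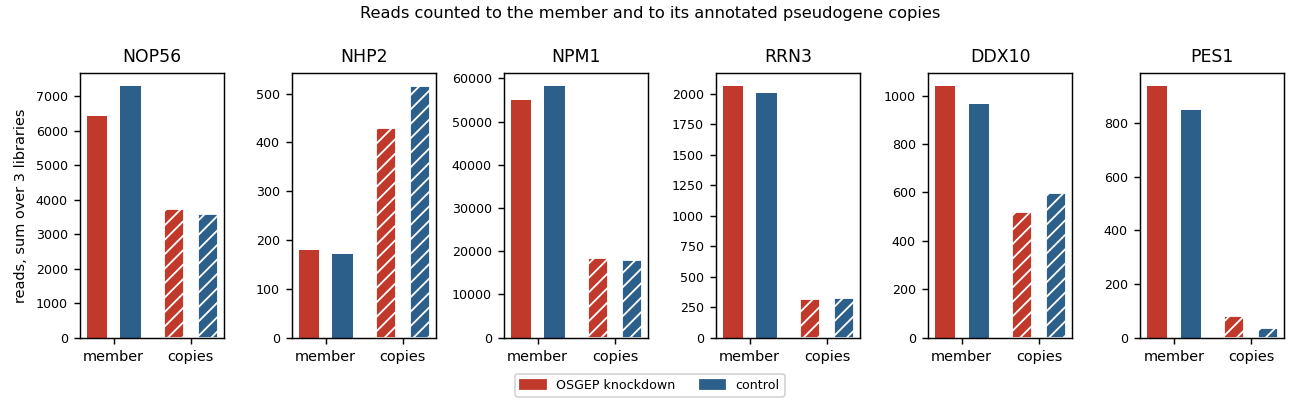
Reads summed over 3 libraries (vertical axis, its own scale in each panel) for the 6 members whose pseudogene copies held at least 5% as many reads, with the member as plain bars and its copies as hatched bars, and the knockdown left of the control. In NHP2 the copies hold more reads than the gene, and in PES1 the copies hold 81 reads in the knockdown and 37 in the control.

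Other genes overlap some members. At least 15% of the exon bases were shared with exons on the opposite strand for 8 members, among them EMG1 (49.5%, with LPCAT3), NHP2 (27.4%, with RMND5B) and HEATR1 (23.2%, with LGALS8), and with exons on the same strand for LTV1 (34.8%) and NOP2 (54.4%). The library kit keeps strand, but the strand setting of the counting is not given in the sources used here, so reads of these genes may not be told apart. NOP10 and FBL shared no exon base with another gene. Within the members lay 32 annotated snoRNA genes, in 8 of the 38 (21.1%), beside 1.72% of the genes tested. TAF1D held 8, GNL3 held 6, NOP56 held 5 and NOP58 held 4.

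A wider list held 160 ribosome biogenesis genes outside the set. Of 157 tested, 2 rose and 3 fell (3.18%, beside 10.8% of all genes). The median log2 fold change over the list was -0.05. DESeq2 called 7 and limma-voom 5. Among 13 further RNA polymerase I genes, 1 rose: POLR2L, a small subunit shared by all 3 nuclear RNA polymerases, stood at 69.9, 85.1 and 105 CPM in knockdown libraries, beside 54.0, 55.7 and 58.5 CPM in control libraries, a log2 fold change of 0.63 (SE 0.17, edgeR adjusted p = 0.0251). Of 55 large-subunit genes, 1 rose and 2 fell. SBDS, which releases the anti-association factor from new large subunits and is mutated in Shwachman-Diamond syndrome, rose to 76.9, 79.3 and 98.8 CPM in knockdown libraries, against 53.5, 68.4 and 48.6 CPM in control libraries at an edgeR adjusted p of 0.0431 (log2 fold change 0.58, SE 0.17). The helicase gene DDX18 fell to 154, 117 and 131 CPM in knockdown libraries, against 164, 221 and 203 CPM in control libraries (-0.55, SE 0.14, edgeR adjusted p = 0.0203). NOP53 fell to 84.6, 94.3 and 87.8 CPM in knockdown libraries, against 133, 125 and 108 CPM in control libraries (-0.46, SE 0.14, edgeR adjusted p = 0.0451).

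Of 26 genes of the RNA exosome and rRNA trimming, 1 fell and 0 rose. EXOSC5, a core subunit of the exosome, fell to 48.8, 43.7 and 34.6 CPM in knockdown libraries, against 66.9, 78.8 and 70.8 CPM in control libraries at an edgeR adjusted p of 0.00961 (log2 fold change -0.77, SE 0.18). Among 40 further small-subunit processome genes, 12 of late small-subunit maturation and 11 of snoRNP assembly, edgeR called 0. At an unadjusted p under 0.05 these lists had 4, 0 and 1, DESeq2 called 1, 0 and 0, and limma-voom 0 in each. The gene with the most reads in each was UTP6 at 216 ± 14.02 CPM in the knockdown, beside 205 ± 18.3 CPM in the control, CSNK1D at 142 ± 7.74 CPM in the knockdown, beside 132 ± 19.4 CPM in the control, and TCOF1, which is mutated in Treacher Collins syndrome, at 163 ± 29.3 CPM in the knockdown, beside 188 ± 6.74 CPM in the control. POLR2F, PWP2 and DDX47 had too few reads to test, 6, 1 and 1 over the knockdown libraries and 2, 5 and 11 over the control libraries. Genes for the cytosolic ribosomal proteins themselves, relatives included, showed 0 rises and 27 falls among 85 tested (31.8%). Over all genes tested, 5.56% were called lower. DESeq2 called 35 of the 85 and limma-voom 37. Their median log2 fold change was -0.29, and the difference from the members was not tested.

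The calls in the wider list moved with single libraries. Without knockdown 3, edgeR called 0 of the 157, without control 2 or control 3 it called 1, without control 1 it called 2 and without knockdown 2 it called 3, while without knockdown 1 it called 9. The NOP53 call was also lost with RLE factors (edgeR adjusted p = 0.056), by library size alone (0.101) and without the filter on low counts (0.0586).

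The promoters of the members, 250 bases before to 50 after the start site in RefSeq on GRCh38.p14, were searched for the E-box CACGTG, the motif of MYC and its partner MAX, which reads the same on both strands. Of the 33 members with an entry, 12 (36.4%) held it, beside 7.26% of all 35116 promoters and 10.5% of the 9556 promoters of genes tested. Of the 13 matches, 12 lay within 50 bases of the start site (92.3%), beside 38.7% of the 1133 matches in promoters of genes tested. The variant CACGCG was in 11 of the 33 (33.3%), beside 18.7% of promoters of genes tested, and CATGTG in 1 (3.03%, beside 6.69%), each searched on both strands. NOP58, NOLC1, RRP12, BOP1 and RRS1 were not searched. A match is a description of letters in a window and not a site of binding. The 12 members with CACGTG had a median log2 fold change of 0.03 and ranged from -0.52 to 0.56, and the 21 without it had a median of -0.15 and ranged from -0.63 to 0.27, so both sets spanned 0.

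Shown here are the matches of NOP10, the called member, and of 3 members that were not called, the methyltransferase gene FBL, BYSL and NAT10, each with 12 bases on either side and the E-box in capitals, 5′ to 3′ on the gene's strand. NOP10 carries 2 matches, which begin 170 and 11 bases before its start site (chr15:34343289-34343318 and chr15:34343130-34343159, minus strand). The match of FBL begins at base 7 after the start (chr19:39846356-39846385, minus strand), that of BYSL at base 29 (chr6:41921515-41921544, plus strand) and that of NAT10 begins 15 bases before it (chr11:34105602-34105631, plus strand).
NOP10 far: gtagggacactcCACGTGttttagcctgca
NOP10 near: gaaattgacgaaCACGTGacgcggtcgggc
FBL: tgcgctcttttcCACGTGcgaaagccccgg
BYSL: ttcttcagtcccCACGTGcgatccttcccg
NAT10: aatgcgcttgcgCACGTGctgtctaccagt

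Since tRNAs for codons with a first A are the targets of OSGEP, the codon content of the members was counted in the coding sequences of GENCODE 29. These counts describe the genes, and RNA counts do not measure translation. Codons starting with A made up a median of 28.5% of the coding sequence of the 38 members, beside 27.3% of 11112 genes tested, and 22 of the 38 lay above 27.3%. The range ran from 18.6% in BOP1 to 36.0% in TAF1D. Lysine codons, which start with AA, were a median of 8.81% in the members, beside 5.86% in genes tested, and 33 of 38 members lay above that median. The 160 genes of the wider list were similar, with medians of 8.0% for lysine codons and 28.8% for codons starting with A. NOLC1 had the highest share of lysine codons, 15.9%, followed by UBTF at 13.7% and NOP58 at 13.6%.

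**Figure D5:**
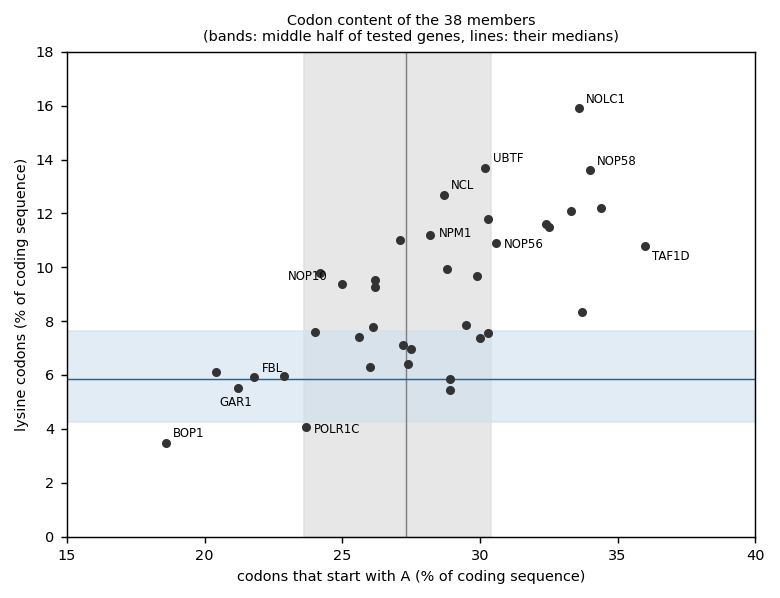
Share of codons that start with A (horizontal axis, % of the coding sequence) and share of lysine codons (vertical axis, %) for the 38 members, with the range between the quartiles of the genes tested as bands and their medians of 27.3% and 5.86% as lines. Most members lie above the lysine median, with NOLC1 at the top and BOP1 at the lower left, while they lie on both sides of the line for codons starting with A.

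The coding sequences below show this content, with every codon that starts with A in capitals. NOP10 is shown whole, without its stop codon, because it was the called member: 16 of its 64 codons start with A. For NOP58, on chromosome 2 at 202265716 to 202303666, the stretch of 40 codons with the most lysine is shown, codons 485 to 524 of 529 near the end of the protein, where 24 codons start with A and 17 encode lysine. For NOLC1, on chromosome 10 at 102152176 to 102163871, codons 565 to 604 of 699 are shown, where 14 start with A and 11 encode lysine.
NOP10: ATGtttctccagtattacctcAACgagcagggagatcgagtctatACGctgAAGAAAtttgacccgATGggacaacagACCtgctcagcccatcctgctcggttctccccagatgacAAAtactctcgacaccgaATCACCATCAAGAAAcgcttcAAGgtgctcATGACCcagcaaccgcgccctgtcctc
NOP58: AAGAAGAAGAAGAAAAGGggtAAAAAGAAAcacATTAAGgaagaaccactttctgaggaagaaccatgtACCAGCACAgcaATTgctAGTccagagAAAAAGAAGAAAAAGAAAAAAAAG
NOLC1: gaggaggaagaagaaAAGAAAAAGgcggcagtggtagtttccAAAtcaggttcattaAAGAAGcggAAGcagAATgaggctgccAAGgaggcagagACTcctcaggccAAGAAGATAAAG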

How the data were processed

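Total RNA of HL-60 cells was sequenced in 6 libraries, 3 with shRNA against OSGEP and 3 with control shRNA, with a stranded mRNA kit and paired-end reads, per the labels' protocols. Each library has 1 deposited table, with raw counts of reads for every Ensembl gene. Per the submitters' processing notes, HISAT2 2.1.0 and featureCounts 1.6.3 were used, and the builds GRCh38 and GRCm38 are listed without a role. Which annotation release and strand setting were used, and how multiply aligned reads were handled, is not given in the sources used here. Groups and replicate numbers came from the sample titles.

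Symbols, positions and exons came from GENCODE release 29 (58039 of 58302 identifiers) with symbols updated from a table of current names (57532). The test was the quasi-likelihood one of edgeR 4.0.16 (R 4.3.3), with a single term for group, after TMM scaling and filterByExpr (minimum count 10, minimum total 15), two-sided, adjusted by the Benjamini-Hochberg method over the 14018 genes tested and called under 0.05. Intervals are 95% intervals of the fitted log2 fold changes. The steps were run on simulated counts with the spread fitted to these libraries, which cannot show whether that spread is right. Libraries of 1 group differed by a chi-square of 10.53 to 25.56 per degree of freedom over genes and were each counted as 1 replicate.

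Alternatives were RLE factors, library size alone, 2 other filters, protein-coding genes alone, DESeq2 1.42.0, limma-voom (limma 3.58.1), a replicate block, an adjusted p under 0.01 and each library left out. The members and lists were chosen with earlier results of these data known. Values per library are given for OSGEP, MYC, the called member and the most abundant uncalled member of each role group, by rule, and for further members chosen after their values were seen; of the wider lists, called genes above a mean of 5 CPM or the most abundant one are named. Codons were counted in GENCODE coding sequences in place of a planned count of residues, since no protein table was used.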

Additional observations from a re-analysis of the deposited data

How the results depend on the processing

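The call of NOP10 held under RLE factors, library size alone, every filter tried, protein-coding genes alone, the replicate block, DESeq2 and limma-voom, with edgeR, DESeq2 or limma-voom adjusted p-values from 0.00158 to 0.0461, and at an adjusted p under 0.01 the number of members called was 0. The number was 2 without the filter on low counts and with DESeq2, where RRS1 joined, and between 0 and 1 with 1 library left out. No member besides NOP10 and RRS1 was called in any of these fits. Among members that were not called, the sign of the log2 fold change differed from the value reported for 5 with library size alone, for up to 3 under the other alternatives, and for up to 9 with 1 library left out, all of them members within 0.14 of 0. The summed level of the members in the control was 6980 CPM by library size alone. Calls in the wider list numbered 2 with the replicate block (EXOSC5 and POLR2L), 1 at an adjusted p under 0.01 (EXOSC5), and between 0 and 9 with 1 library left out. All genes called numbered 1507, 823 at an adjusted p under 0.01, and between 870 and 1624 with 1 library left out. With library size alone the split of these calls was 859 higher and 612 lower, beside 727 and 780 with TMM. Libraries with the same replicate number did not deviate together, with correlations of -0.116, -0.062 and -0.037, so the numbers were not taken as pairs, and the block, which gave 1072 calls over all genes, changed no call among the members. The widest standard errors were those of NHP2, MYBBP1A, RRS1, EMG1, RRP12 and GAR1, which have few reads.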
